A study of Rattus norvegicus with 6 samples.

Results

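Cytosolic ribosomal proteins are the proteins that, with ribosomal RNA, make up the small and large subunits of the ribosome outside mitochondria. They were taken here as every probe set with exactly 1 gene symbol in the platform annotation that starts with Rpl, Rps or Rplp followed by a digit, leaving out the Rps6k kinases. A probe set is a group of array probes summarised to 1 value for a transcript. The rule gave 54 probe sets of 49 genes, out of 31042 probe sets tested on the array, which stand for 14217 genes with a symbol of their own. By symbol, 38 probe sets (34 genes) belonged to the large subunit and 16 (15 genes) to the small subunit. The rule also takes in some genes that are not standard subunits, namely the paralogues Rpl3l, Rpl7l1, Rpl26l1, Rpl39l1, Rps27l and Rps4y2 and the pseudogenes Rpl37-ps2 and Rps4x-ps1, and these are described apart.

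The study measured liver RNA of male Wistar rats on 6 Affymetrix expression arrays, 3 from rats fed a low-protein diet (5P) and 3 from rats fed a control diet of equal energy (15P). All were 6 weeks old and about 150 g when bought, were caged singly, and spent 4 days on pellets followed by 4 days of training to take the 15P diet in a fixed daytime window. Livers came from 1 feeding period of 8 hours on 5P or 15P with 16 hours of fasting after it, so both groups share the training and the fast. Whether each array is a separate rat is not stated, so a p-value here speaks of the spread between arrays, which may be technical. The series title names FGF21, growth and lipid metabolism as the subject; the comparison described here is of 5P with 15P livers.

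Ribosomal proteins are needed in matched amounts, and their genes are among the most strongly transcribed of a growing cell. Their mRNAs start with a run of pyrimidines, the 5′ terminal oligopyrimidine (TOP) tract, through which the kinase complex TORC1 and the RNA-binding protein LARP1 set how much of them is translated and how stable they are when amino acids are short. In liver, ribosome content falls during protein deprivation and recovers on refeeding. These sentences are background and not a result of the arrays.

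Pyrimidine runs, called tracts below, were searched for near the annotated starts of the genes. A TOP tract begins at the first base of the mRNA. The wider of the searches does not ask for that, so a run it counts need not be a TOP tract. RefSeq start windows (GRCr8, 250 bases before to 50 bases from the transcription start) were found for 40 of the 49 genes, 1 window each. Within 25 bases on either side of the start, 25 of these 40 windows (62.5%) held a C followed by at least 7 bases that are each C or T, read in the direction of transcription, against 14.5% of the 33469 windows of all genes. On the opposite strand the same search found 5 of 40 (12.5%), against 16.3% of all windows. A separate search fixed the position and asked for a shorter run, a C exactly at the annotated start followed by 4 bases that are each C or T, and was met by 11 of 40 windows (27.5%), against 2.63% of all. The windows below, 40 bases before and 20 bases from the start, are shown because they include members with a tract and without one, from Rpl4, of the greatest difference between diets, to Rpl41, which differed little; capitals mark the longest tract found, and the start is the 41st base from the left.
Rpl4, chr8:73566437-73566496, + strand: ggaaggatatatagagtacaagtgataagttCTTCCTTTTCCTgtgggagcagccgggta
Rpl34, chr2:221962264-221962323, - strand: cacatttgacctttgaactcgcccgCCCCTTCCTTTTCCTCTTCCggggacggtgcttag
Rps23, chr2:23814477-23814536, + strand: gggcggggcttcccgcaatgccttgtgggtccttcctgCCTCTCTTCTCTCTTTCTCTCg
Rps3, chr1:163195757-163195816, - strand: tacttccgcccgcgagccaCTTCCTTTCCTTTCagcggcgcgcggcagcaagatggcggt
Rpl18, chr1:105325230-105325289, + strand: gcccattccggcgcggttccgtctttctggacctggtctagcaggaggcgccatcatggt
Rps3a, chr2:173827023-173827082, - strand: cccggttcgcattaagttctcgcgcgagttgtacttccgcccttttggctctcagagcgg
Rpl41, chr7:1563478-1563537, - strand: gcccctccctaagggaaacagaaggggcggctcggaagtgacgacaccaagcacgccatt

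Within the 25 bases searched on either side of the start, Rpl4, Rpl34, Rps23 and Rps3 carried a tract. That of Rps3, 14 bases long from 21 bases before the start, lies wholly outside the annotated mRNA. In Rps16 the tract began only at base 15 of the annotated mRNA. Rpl18, Rps3a and Rpl41 held no run of that length there, which says nothing about their true starts. The pyrimidine run at the left end of the printed Rpl41 window lies outside the bases searched. Rps3a did meet the search for a C at the start followed by 4 bases that are each C or T, as did Rpl34. Among the 34 windows of standard subunit genes, the 23 genes with a tract had a median log2 fold change of 0.28 (range -0.10 to 0.70), and the 11 without one had 0.35 (0.09 to 0.44). The genes with a tract include Rpl28, Rpl39 and Rps13, which read weakly, at mean log2 intensities of 3.18, 6.14 and 4.52. Rpl39 and Rps13 gave the only negative values, and no gene without a tract read so weakly. CCGGAAG, a core of ETS family sites, was found on either strand of the whole window in 10 of 40 genes (25%), against 8.75% of all windows. AAGATGGC, part of the YY1 site, was found on either strand in 4 of 40 (10%), against 3.17%. The reverse complement of the ETS core begins with pyrimidines and can overlap a tract, and AAGATGGC can include a start codon.

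Ribosomal protein RNA read higher in low-protein livers across the brightly measured members of both subunits, but no single probe set passed the test over the whole array. Of the 54 probe sets, 48 had a higher mean log2 intensity in 5P than in 15P livers and 6 a lower one, where 58.1% of all probe sets were higher. The median log2 fold change (5P minus 15P) was 0.25, with a range of -0.55 to 0.70, against a median of 0.03 over all probe sets. In 36 of the 54 every 5P array lay above every 15P array, and in none did every 5P array lie below; over all probe sets 12.5% had groups that did not overlap with 5P higher, and 9.12% with 5P lower. In the limma fit, with p-values adjusted by Benjamini-Hochberg across the 31042 probe sets, 0 of 54 had an adjusted p under 0.05, as had 0.132% of all probe sets (0.0354% with 5P higher). An unadjusted p under 0.05 with 5P higher was reached by 31 of 54, against 7.83% of all probe sets, and with 5P lower by 1 of 54, against 7.58%. In whole-liver RNA, more cells of a type and more RNA per cell cannot be told apart.

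The members formed a bright set and a dim set with nothing between mean log2 intensities of 8.39 and 10.8. A division at 9, set after the values were seen, put 37 probe sets of 37 genes in the bright set and 17 in the dim set. All 37 bright probe sets were higher in 5P livers, 34 of them with groups that did not overlap, and their median log2 fold change was 0.30, a fold of 1.23. Among all 2649 probe sets with a mean log2 intensity of at least 9, 51.6% were higher, 17.9% were higher with groups that did not overlap, and the median was 0.01. These include probe sets from 9 to 10.8, where no member lies, so they are not matched to the members in intensity. An unadjusted p under 0.05 with 5P higher was reached by 31 of the 37, against 12.9% of the 2649 (18 of the 37 without low-protein replicate 3 and 20 without control replicate 3). An adjusted p under 0.05 was reached by 0 of 37, against 0.491% of the 2649 (0.0755% with 5P higher). The middle 50% of the bright members lay between 0.24 and 0.34, and 32 of 37 lay between 0.20 and 0.45. Their SD across genes was 0.111, and the median SE of a single gene was 0.0966. That SE includes shifts of whole arrays that these genes share, so it does not measure how well they can be ordered. Whether the bright genes differ from each other was not tested. The dim set had a median of 0.07, with 11 of 17 higher and 2 higher without overlap (Rpl28 and the dimmer Rpl3 probe set), and it holds all 9 probe sets of paralogues and pseudogenes. Over all 54 the log2 fold change and the mean log2 intensity had a Pearson r of 0.67 and a Spearman rho of 0.60, and within the 37 bright ones of -0.09 and 0.03; these are descriptions over probe sets that share the 6 arrays.

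**Figure D1:**
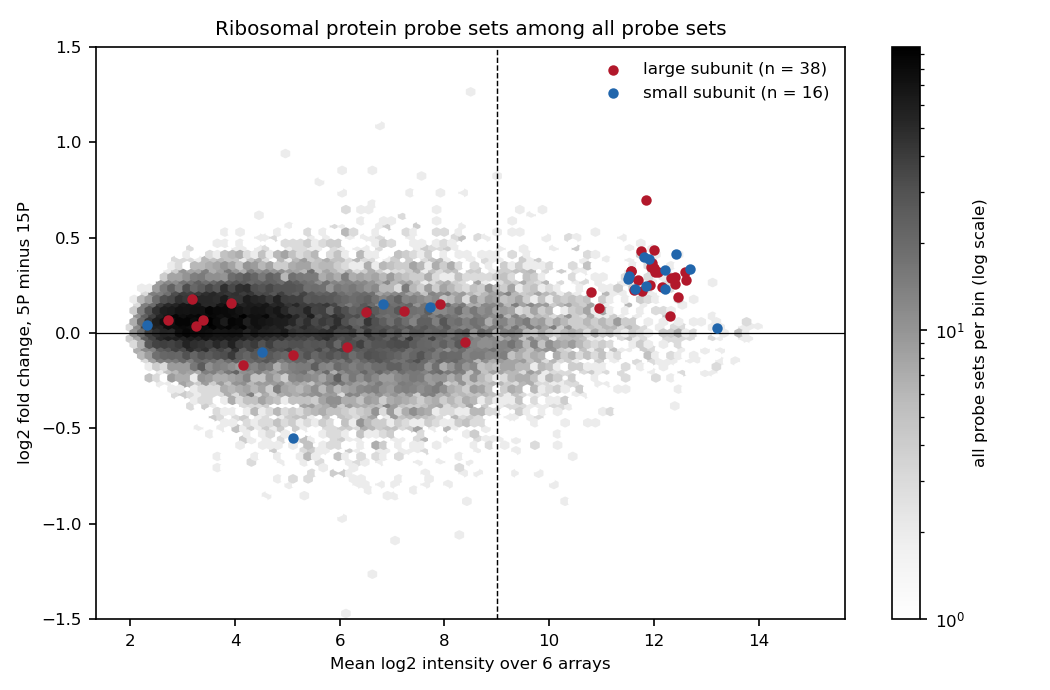
Each of the 54 ribosomal protein probe sets (large subunit red, small subunit blue) is placed by its mean log2 intensity over 6 arrays and its log2 fold change, 5P minus 15P, over a grey density of all 31042 probe sets, of which 39 lie beyond the vertical limits of 1.5. Right of the dashed line at 9 all 37 members sit above 0, with a median of 0.30, while the 17 members to its left scatter around 0.07.

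**Figure D2:**
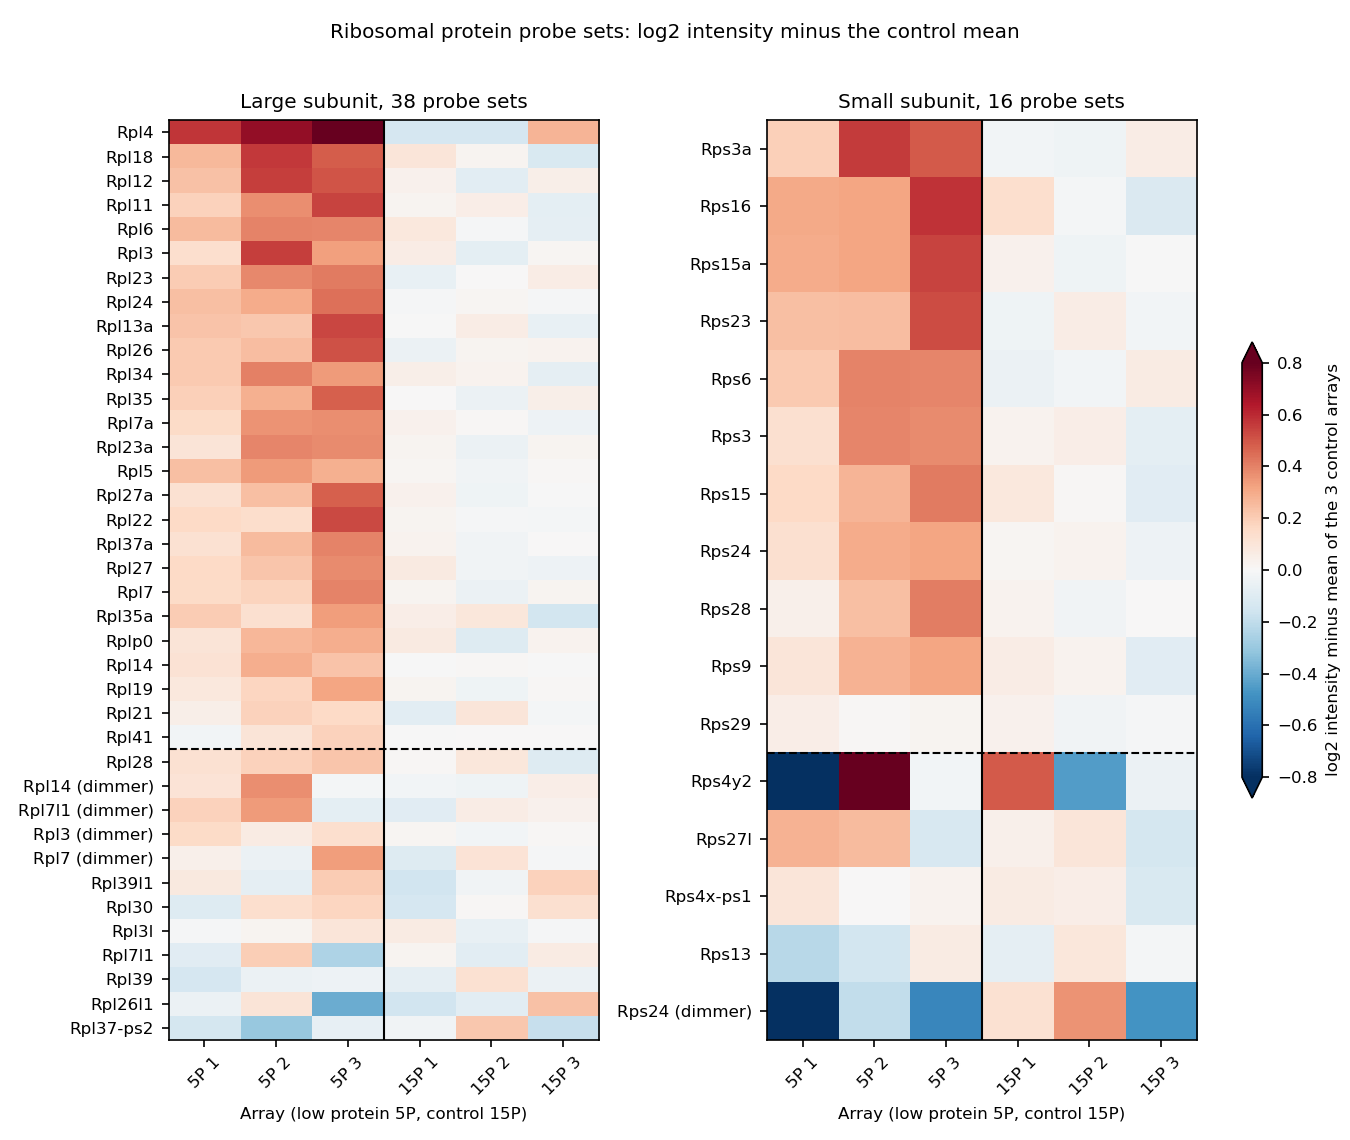
Colour gives the log2 intensity of each probe set on each array minus the mean of the 3 control arrays, with the low-protein arrays (5P) to the left of the control arrays (15P) and values beyond 0.8 drawn in the end colours. Above the dashed line, at a mean log2 intensity of at least 9, the 5P columns are red in nearly every row and the 15P columns are near white; below it the rows have no common direction.

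Arrays differed in the size of the shift. The mean of the 37 bright members stood 0.177, 0.313 and 0.403 above the control mean on low-protein replicates 1, 2 and 3, against 0.019, -0.008 and -0.012 on control replicates 1, 2 and 3. Low-protein replicate 1 was the lowest of its group in 33 of the 37 genes, and replicate 3 was the highest in 24. The controls lay close together, with a median SD of 0.0525 per gene, against 0.129 in low-protein livers. All 37 remained higher when any single array was left out, with medians from 0.24 (without low-protein replicate 3) to 0.37 (without low-protein replicate 1).

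**Figure D3:**
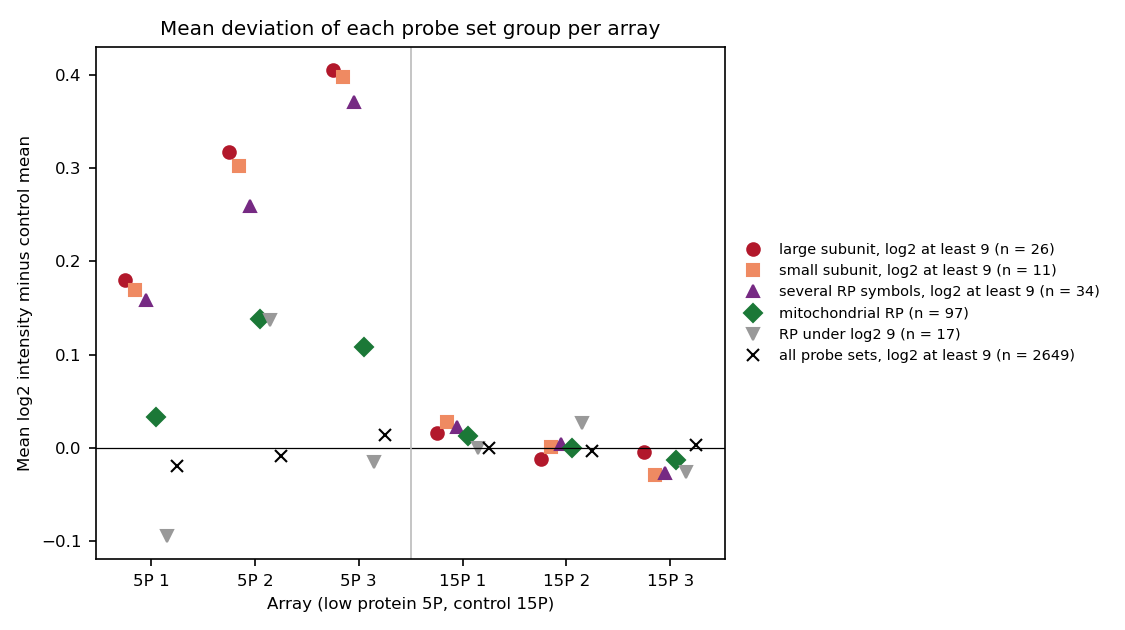
Points give, for each array, the mean over a group of probe sets of the log2 intensity minus the control mean; low-protein arrays (5P) are on the left and control arrays (15P) on the right. Large and small subunit members lie almost on top of each other on every array, at 0.180 and 0.169 on low-protein replicate 1 and at 0.405 and 0.397 on replicate 3, and the mean of all bright probe sets stays within 0.02 of 0.

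Large and small subunits did not differ in their shift beyond the spread between arrays. In the bright set, 26 large subunit genes had a median log2 fold change of 0.29 and 11 small subunit genes 0.30, and their mean log2 fold changes, 0.301 and 0.290, differed by 0.011. The large minus small difference per array was 0.011, 0.015 and 0.007 on the low-protein arrays, against -0.012, -0.013 and 0.025 on the control arrays, so the groups overlapped. Over all 54 probe sets the difference of means was 0.039 (large 0.218, small 0.179). Per array it was 0.122, -0.053 and 0.048 on the low-protein arrays, against -0.066, -0.011 and 0.076 on the control arrays. With 1 probe set a gene, 34 large and 15 small subunit genes differed by 0.0004.

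**Figure D4:**
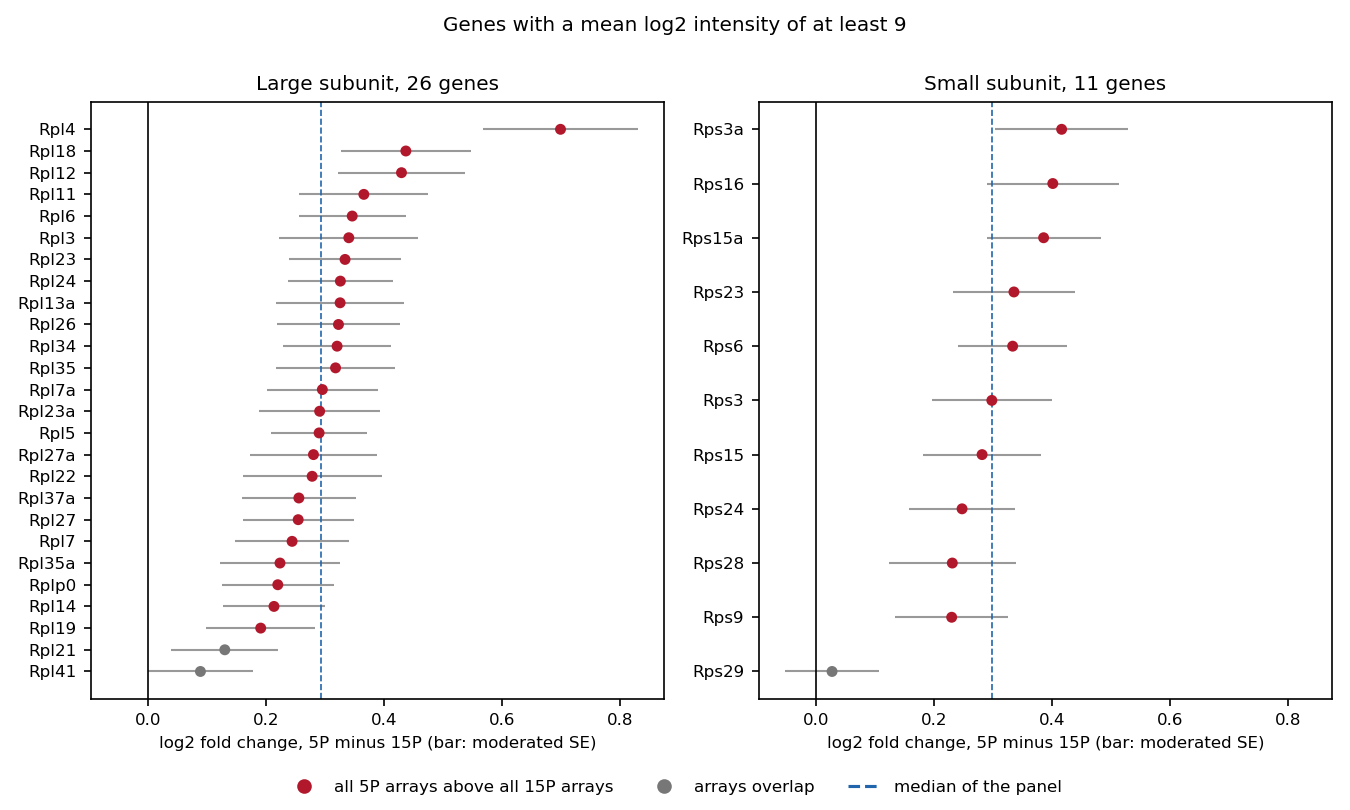
Points are log2 fold changes, 5P minus 15P, of the 37 bright genes in the large (left panel) and small (right panel) subunit, with bars of 1 moderated SE and a dashed line at the median of each panel (0.29 and 0.30). Rpl4 stands out to the right at 0.70, and the grey points Rpl21, Rpl41 and Rps29 are the genes whose arrays overlapped.

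Rpl4 (gene ID 64302), a large subunit protein that lines the tunnel through which the new peptide leaves, had the greatest difference of the set. It read 12.08, 12.21 and 12.32 (log2 intensity) on the low-protein arrays, against 11.37, 11.37 and 11.77 on the control arrays. The lowest low-protein array lay 0.304 above the highest control, control replicate 3. The log2 fold change was 0.70 (SE 0.131), a fold of 1.62, with an adjusted p = 0.081 by limma. Without control replicate 3 it was 0.83 (adjusted p = 0.0394 by limma), the only fit in which any of the 54 probe sets passed, and over all alternatives the adjusted p ran from 0.0394 to 0.215.

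Other large subunit members followed at smaller differences. Rpl18 (gene ID 81766) read 12.04, 12.34 and 12.26 on the low-protein arrays, against 11.88, 11.80 and 11.66 on the control arrays, a log2 fold change of 0.44 (SE 0.110). Rpl12, which sits at the base of the stalk where translation factors bind, read 11.78, 12.09 and 12.05 on the low-protein arrays, against 11.58, 11.46 and 11.59 on the controls. Its log2 fold change was 0.43 (SE 0.108). Both were higher on 3 of 3 low-protein arrays, and their adjusted p was 0.140 and 0.139 by limma.

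Rpl5 and Rpl11, which bind 5S ribosomal RNA and together can hold back MDM2, the p53 ubiquitin ligase, were both higher. Rpl5 read 12.43, 12.53 and 12.48 on the low-protein arrays, against 12.21, 12.16 and 12.20 on the controls, with a gap of 0.224 between the groups. Its log2 fold change was 0.29 (SE 0.0815). Rpl11 read 11.97, 12.16 and 12.33 on the low-protein arrays, against 11.81, 11.84 and 11.71 on the controls, a difference of 0.37 (SE 0.109). Neither gene passed over all probe sets (adjusted p = 0.167 and 0.183 by limma).

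Rpl6, Rpl23, Rpl24 and Rpl34 were the other large subunit genes of smallest p, with log2 fold changes of 0.35, 0.33, 0.33 and 0.32 and adjusted p from 0.150 to 0.170 by limma. Rpl24, which helps bridge the subunits, had the tightest controls of these, at 11.40, 11.42 and 11.40, with 11.65, 11.70 and 11.85 on the low-protein arrays. Rpl3, a protein close to the peptidyl transferase centre, had a brighter probe set at 0.34 (SE 0.118). Rplp0, the anchor of the acidic stalk proteins, was the only stalk gene with a symbol of its own. It read 11.77, 11.94 and 11.96 on the low-protein arrays, against 11.74, 11.57 and 11.70 on the controls, so that the groups parted by 0.030 with a log2 fold change of 0.22 (SE 0.0954).

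Among small subunit genes, Rps3a, Rps16 and Rps15a had the greatest differences, at 0.42, 0.40 and 0.39 (SE 0.113, 0.112 and 0.0965). Rps3a (gene ID 29288) read 12.40, 12.77 and 12.70 on the low-protein arrays, against 12.18, 12.17 and 12.27 on the controls. Rps15a (gene ID 117053) read 12.02, 12.04 and 12.27 on the low-protein arrays, against 11.76, 11.69 and 11.72 on the controls, and its groups parted by 0.259. All low-protein arrays lay above all controls for these 3 genes, and their adjusted p ran from 0.138 to 0.164 by limma.

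Rps6 (gene ID 29304), the substrate that gave S6 kinase its name, read 12.26, 12.44 and 12.43 on the low-protein arrays, against 12.00, 12.02 and 12.11 on the controls. The groups did not overlap, and the log2 fold change was 0.33 (SE 0.0921, adjusted p = 0.163 by limma). Rps23, of the decoding centre, and Rps3, at the mRNA entry of the small subunit, had 0.34 and 0.30, and Rps15 had 0.28. Rpsa and Rack1, small subunit proteins whose symbols fall outside the rule, showed the same direction. Rpsa read 11.61, 11.85 and 11.91 on the low-protein arrays, against 11.47, 11.31 and 11.46 on the controls, with a log2 fold change of 0.37 (SE 0.108), and its other probe sets had 0.44 and 0.39. Rack1 had 0.30 (SE 0.0901), without overlap.

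A few bright members showed little difference. Rps29 (gene ID 25348), a small zinc-binding protein of the small subunit, read 13.24, 13.20 and 13.21 on the low-protein arrays, against 13.23, 13.17 and 13.18 on the controls. Its log2 fold change was 0.03 (SE 0.0799), and with arrays centred on their medians it was -0.00022, which left 36 of 37 higher. Rpl41, a very short basic peptide between the subunits, read 12.25, 12.37 and 12.45 on the low-protein arrays, against 12.27, 12.27 and 12.27 on the controls, a difference of 0.09 (SE 0.0886). Rpl21 had 0.13 (SE 0.0908). These were the 3 bright genes whose arrays overlapped, and whether they differ from the other bright members was not tested.

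Genes measured by more than 1 probe set showed that the dim probe sets do not track the bright ones closely. Rps24 had a bright probe set at 0.25 (SE 0.0894), with 11.86, 12.02 and 12.04 on the low-protein arrays, against 11.74, 11.75 and 11.69 on the controls. Its dim probe set read 4.45, 5.19 and 4.87 on the low-protein arrays, against 5.51, 5.74 and 4.91 on the controls, a difference of -0.55 (SE 0.241, adjusted p = 0.322 by limma). That opposite sign went with overlapping groups, low-protein replicate 2 being above control replicate 3. The dimmer probe sets of Rpl3, Rpl7 and Rpl14 had 0.12, 0.11 and 0.16, against 0.34, 0.24 and 0.21 for the brighter ones. Rpl28, Rpl30, Rpl39, a protein of the exit tunnel, and Rps13 had only dim probe sets under the rule. Their log2 fold changes were 0.18 (SE 0.0903), 0.07 (SE 0.112), -0.07 (SE 0.0920) and -0.10 (SE 0.104), and only Rpl28 had groups that did not overlap. Rpl28, Rpl30 and Rps13 read at mean log2 intensities of only 3.18, 3.39 and 4.52, where every bright member read at least 10.8. Values so low on the array may not measure these mRNAs.

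Paralogues and pseudogenes showed no common direction. Of their 9 probe sets 6 were higher, the median was 0.04 and all 9 had overlapping groups. Rpl7l1, a paralogue of Rpl7, had -0.05 and 0.15 in its probe sets, and Rps27l, a p53-responsive paralogue of Rps27, had 0.13 (SE 0.130). Rpl26l1 had -0.12, Rpl3l, a muscle paralogue of Rpl3, 0.04, the pseudogene Rpl37-ps2 -0.17 and the pseudogene Rps4x-ps1 0.04. Rps4y2 had the greatest spread among these within the low-protein arrays. It read 5.77, 8.22 and 6.73 on the low-protein arrays, against 7.25, 6.30 and 6.71 on the controls, with an SD of 1.24 in low-protein livers and 0.47 in controls, and its log2 fold change of 0.15 (SE 0.534) turned to -0.50 without low-protein replicate 2.

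Another 36 probe sets list a ribosomal protein together with other symbols, mostly copies and pseudogenes, and so fall outside the rule; the signal of such probe sets cannot be assigned to 1 gene and none is named. As a group 35 of 36 were higher in low-protein livers, 28 without overlap and 1 lower without overlap, against 12.5% and 9.12% of all probe sets, with a median of 0.24 and a range of -0.55 to 0.60. None passed the test (smallest adjusted p = 0.0911 by limma). On low-protein replicates 1, 2 and 3 the mean of the 34 bright ones stood 0.159, 0.259 and 0.371 above the control mean, in the same order of arrays as the members.

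Genes of ribosome production outside the ribosome lay on both sides of 0. They read less brightly than the bright ribosomal proteins, whose mean log2 intensities ran from 10.8 to 13.2. The biogenesis factors ran from 4.96 to 10.5, and the RNA polymerase I genes from 4.49 to 9.10. The part of intensity in their smaller medians was not tested. Of 51 measured ribosome biogenesis factors, 32 were higher, none passed the test in either direction, and the median was 0.09. Of these 51, 16 were higher without overlap and 4 lower without overlap, against 12.5% and 9.12% of all probe sets. Ebna1bp2 and Nhp2, of nucleolar rRNA processing, had 0.46 (SE 0.110) and 0.65 (SE 0.192), Nop16 had 0.34, and the nucleolar GTPase gene Gnl3 had -0.44 (SE 0.119), with low-protein arrays at 8.85, 8.82 and 8.61, against 9.12, 9.07 and 9.41 on the controls. Of 12 measured genes for RNA polymerase I and its factors 4 were higher, none passed, and the median was -0.05. Ubtf, the factor that opens ribosomal DNA for transcription, had -0.32 (SE 0.105) with other probe sets from -0.14 to 0.13, and Taf1b, Taf1c and Taf1d, subunits of the promoter factor SL1, had 0.32, -0.34 and -0.22.

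Genes outside the ribosome known to have TOP starts, most of them translation factors, included some of the same size of difference. Of 10 measured, 9 were higher, none passed in either direction, and the median was 0.15. Of these 10, 5 were higher without overlap and 1 lower without overlap, where all probe sets had 12.5% and 9.12%. Eef1b2, a nucleotide exchange subunit of elongation factor 1, read 11.50, 11.55 and 11.71 on the low-protein arrays, against 11.10, 11.11 and 10.97 on the controls, a difference of 0.53 (SE 0.0955, adjusted p = 0.0739 by limma). Naca, of the nascent polypeptide complex, had 0.43, and Eef2, the translocation factor, 0.28. Hnrnpa1, an RNA-binding protein, had -0.61 in its brightest probe set and 0.56 and 0.65 in the others, and the brightest was -0.70 without control replicate 3 (adjusted p = 0.046 by limma). Of 16 measured genes around TORC1 and LARP1, 9 were higher, none passed, and the median was 0.02. Their mean log2 intensities ran from 5.72 to 10.7, below every bright ribosomal protein. Eif4ebp1, the translation repressor that TORC1 phosphorylates, read 8.62, 8.80 and 8.65 on the low-protein arrays, against 7.98, 8.27 and 8.25 on the controls, a difference of 0.52 (SE 0.109, adjusted p = 0.0976 by limma). The TORC1 activator Rheb had 0.23 (-0.20 in a dimmer probe set). The TORC1 inhibitor Ddit4 had 0.67 (SE 0.275), and the inhibitor Sesn1 had -0.26 (0.05 in a dimmer probe set).

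Mitochondrial ribosomal proteins, taken by the symbols Mrpl and Mrps, had 77 of 97 probe sets higher, against 58.1% of all probe sets, with a median of 0.09 and none past the test. Of these 97, 24 were higher without overlap and 2 lower without overlap, against 12.5% and 9.12%. Their means stood 0.033, 0.139 and 0.108 above the control mean on low-protein replicates 1, 2 and 3. The mean log2 intensities of the mitochondrial set ran from 3.00 to 10.4, below the 10.8 of the dimmest bright cytosolic member. The difference between the cytosolic and mitochondrial sets, and the part of intensity in it, was not tested.

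**Figure D5:**
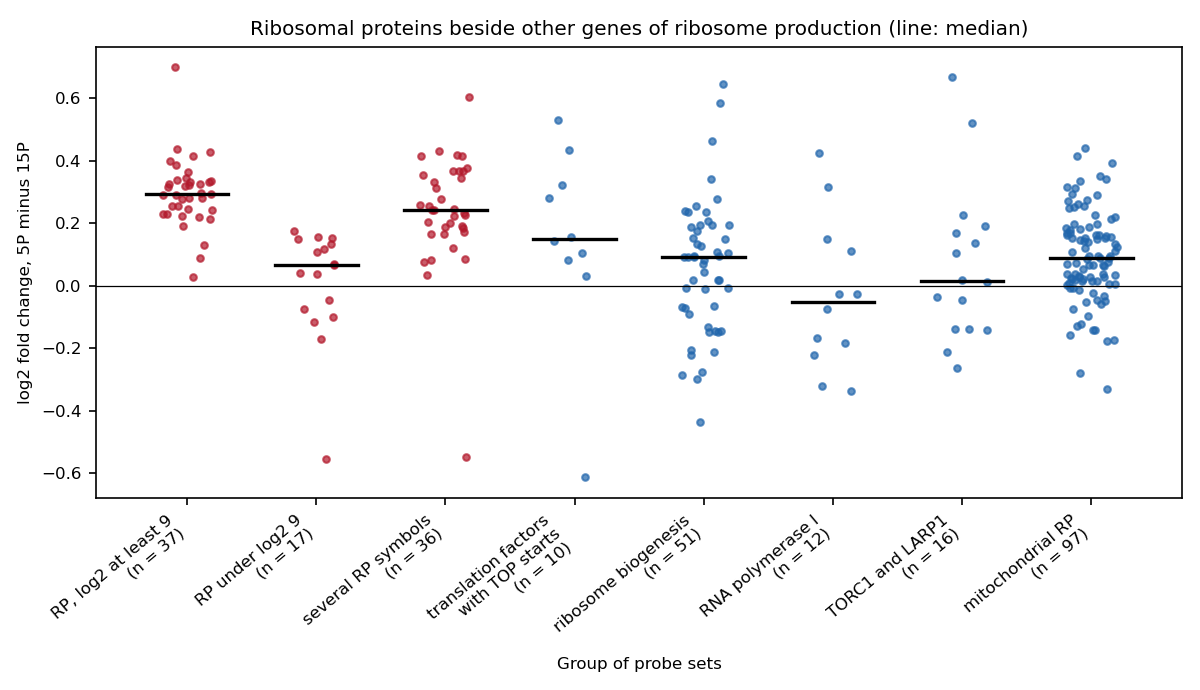
Each point is the log2 fold change, 5P minus 15P, of a probe set (ribosomal and mitochondrial ribosomal proteins) or of a gene by its brightest probe set (the other lists), and the line is the median. The bright ribosomal proteins gather around 0.30 and the probe sets with several symbols around 0.24, while ribosome biogenesis, RNA polymerase I and TORC1 genes spread on both sides of 0. Those 3 lists and the mitochondrial set read below the intensity of every bright ribosomal protein. The group labelled translation factors also holds Hnrnpa1 and Naca.

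No listed marker of a cell type or of the cell cycle passed the test, the smallest adjusted p being 0.0739 by limma for Hbb. Of 12 listed red blood cell markers 6 were measured, 5 were higher and none was at 0; their summed intensity ran from 4080 to 4347 on the low-protein arrays and from 2888 to 3147 on the controls, with the globin gene Hbb at 0.48 (SE 0.0856) and the heme synthesis gene Alas2 at 0.43 (SE 0.0992). Of 12 cell cycle genes 11 were measured and 11 were higher, with sums from 817 to 1220 on the low-protein arrays and from 678 to 757 on the controls. Their mean stood at 0.174, 0.644 and -0.039 from the control mean on low-protein replicates 1, 2 and 3. On control replicates 1, 2 and 3 it stood at 0.133, 0.025 and -0.157. For macrophages 8 of 11 markers were measured and 7 were higher, 0 of them without overlap. Their sums ran from 3871 to 5515 on the low-protein arrays and from 3218 to 4093 on the controls. The macrophage mean stood at 0.059, 0.089 and 0.425 on low-protein replicates 1, 2 and 3. On control replicates 1, 2 and 3 it stood at 0.129, 0.124 and -0.253, so the diets overlapped. Of the measured markers, 1 of 5 for cholangiocytes, 2 of 4 for neutrophils, 2 of 6 for endothelium, 5 of 7 for stellate cells, 6 of 8 for T cells and 3 of 3 for B cells were higher. The medians of these lists were -0.11, -0.14, -0.04, 0.06, 0.09 and 0.14, and the summed intensities of both diets overlapped in each of them. Of the 9 measured hepatocyte markers, among them albumin and transthyretin, 3 were higher and 6 lower, with a median of -0.02. Without overlap 1 was higher and 2 were lower, against 12.5% and 9.12% of all probe sets. Their mean log2 intensities ran from 9.44 to 14.4. Their sums ran from 93828 to 94952 on the low-protein arrays and from 95404 to 98607 on the controls, so the sums did not overlap. The log2 difference of the 3′ and 5′ Gapdh control probe sets was 0.375, 0.416 and 0.518 on the low-protein arrays, against 0.273, 0.368 and 0.356 on the controls. The Gapdh values thus did not overlap between diets, while those of actin did. The part of any of these in the ribosomal protein differences was not tested.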

How the data were processed

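Per the labels' protocols, liver total RNA was column-purified and labelled by 3′ in vitro transcription for Affymetrix arrays. Each array has 1 deposited intensity per probe set, from RMA per the submitters' processing notes, with the program and version not stated there. RMA includes a normalization between arrays, which can hide a shift that most transcripts share; the deposited arrays still differed somewhat, with 75th percentiles from 122 to 131. Their range of 3.61 to 21668 is that of a linear scale, and all fits used log2 of the deposited intensities. Of 31099 probe sets 57 Affymetrix controls were left out, and 31042 were tested with no filter; median intensity per array ran from 33.3 to 34.2. Arrays have no read depth, and their number (3 a diet) limits the precision.

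Low protein was compared with control by limma 3.58.1 (R 4.3.3, lmFit and eBayes, two-sided, threshold 0.05 after Benjamini-Hochberg adjustment over all probe sets). Fold changes are 5P minus 15P and SEs are moderated; the total degrees of freedom were 8.38. The fit was tested on simulated data. Counts and medians over a list are descriptions. Symbols are those of the platform annotation; 47 of the 49 gene IDs matched RefSeq (GRCr8), with 0 symbols changed. Genes with several probe sets are shown by the brightest. The members and lists were chosen with earlier results of these data known. Genes were named by a rule (smallest p and lowest fold change per subunit, Rpl4 and Rpl18, stalk genes, paralogues, Rpsa and Rack1, genes whose probe sets disagree most, and 4 of smallest p per list), which gave 47 genes; Rpl11, Rpl14, Rpl21, Rpl28, Rpl30, Rpl41, Hbb and Alas2 were chosen after their values were seen. Same-numbered arrays did not deviate together (correlations -0.09, -0.03 and -0.10), so the numbers were not taken as pairs. Alternatives were the prior variance, centring, quantile normalization, intensity filters, array weights, a replicate block, each array left out, and other selections of member probe sets. Plots used matplotlib 3.10.9 (Python 3.11.15).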

Additional observations from a re-analysis of the deposited data

How the results depend on the processing

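The count of higher ribosomal protein probe sets, the count without overlap and the medians kept their direction under all alternatives run, with 37 to 49 probe sets higher, 33 to 39 higher without overlap and a median log2 fold change from 0.21 to 0.31; the 37 belongs to the 37 bright probe sets alone, a selection made after the data were seen. The number with an unadjusted p under 0.05 and 5P higher was 20 without low-protein replicate 3 and 20 without control replicate 3, and ran from 20 to 33 over the left-out arrays, against 31 with all 6; among the 37 bright ones it ran from 18 to 33, against 31. No member passed the adjusted test in any alternative other than without control replicate 3, where 1 did (Rpl4). The large subunit median ran from 0.19 (without low-protein replicate 3) to 0.30 over the left-out arrays. The large minus small difference ran from -0.002 to 0.085 over all alternatives. The count over the whole array was 41, and was 103 with a robust prior variance, 78 with median centring, 102 with array weights, 6 with the replicate block, and 16 to 109 over the left-out arrays; the share of these calls with 5P higher was 26.8% as deposited, 16.7% with median centring and 40.7% with centring on the 75th percentile. No scaling moved the median of all probe sets by more than 0.05. The replicate block, whose numbers do not pair the arrays, left 26 of the 37 bright members with an unadjusted p under 0.05, against 31 without it, and 0 members called.

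Signs turned for some genes with small or divided differences, and the cause was not tested. Rpl7l1 was 0.0027 with centring on the 75th percentile, 0.15 in the probe set of largest SD and 0.052 as the mean of its probe sets, and ran from -0.17 to 0.053 over the left-out arrays. Rps24 was -0.55 in its probe set of largest SD and -0.15 as a mean, Hnrnpa1 0.65 and 0.20, Taf1d 0.093 and Rheb -0.20 in the probe set of largest SD. Rpl3l was -0.014 with quantile normalization, and Rps29 -0.00022 with median centring. Over the left-out arrays Rpl26l1 ran from -0.22 to 0.027, Rps4x-ps1 from -0.017 to 0.074 and Rps4y2 from -0.50 to 0.72.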

Other observations

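The array also carries a control probe set for 5S ribosomal RNA, the RNA that Rpl5 and Rpl11 bind. It was left out of the fit with the other controls and read 5.01, 5.19 and 4.87 (log2 intensity) on the low-protein arrays, against 5.12, 5.34 and 4.84 on the controls, so the groups overlapped. The labelling starts from poly(A) tails, which 5S RNA lacks, so this value is not a level of the RNA.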
